A study of Mus musculus with 72 samples.

Results

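Apoe, Lpl, Abca1, Lrp1 and Fabp5 encode a lipoprotein, a lipase, a cholesterol exporter, a lipoprotein receptor and a fatty acid binding protein, and they were described here as the lipid handling genes. They were chosen by name, and all 5 were found among the 1266 named genes of the deposited table. Cortical RNA of 36 mice had been measured with 2 NanoString nCounter panels, an assay that counts fluorescent barcodes hybridised to a fixed set of transcripts without amplification. All mice carried the 5xFAD transgenes, which place human amyloid precursor protein and presenilin with familial Alzheimer's mutations under the neuronal Thy1 promoter and produce amyloid plaques. The groups, all aged 7.5 months, were P522R_5xFAD mice, which also carried the Plcg2 variant P522R, M28L_5xFAD mice, which carried the Plcg2 variant M28L, and 5xFAD mice with neither variant. Each genotype had 6 females and 6 males. The labels do not state zygosity, and every mouse compared here carried 5xFAD. A pair of M28L_5xFAD females shared the animal number 14 and were kept as separate mice.

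In the brain, Apoe is made mainly by astrocytes and, near plaques, by microglia, and its protein forms the particles that carry cholesterol and phospholipid between cells. Abca1 loads those particles with lipid, Lrp1 takes them up into neurons and glia, Lpl releases fatty acids from lipoprotein triglycerides, and Fabp5 carries fatty acids inside the cell. Plcg2 is a phospholipase that signals below Trem2 in microglia, whose plaque-associated state includes higher Apoe and Lpl. In people, P522R is associated with lower and M28L with higher risk of Alzheimer's disease.

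The deposited values were on a log2 scale, so a difference between groups is a log2 fold change. Every deposited value was a whole count multiplied by a constant for its mouse and panel, and the counts could be recovered. The 757-gene panel held Apoe, Lpl, Abca1 and Fabp5, and the 509-gene panel held Lrp1. Panel totals ran from 237563 to 1957325 counts per mouse. Over all mice Apoe had 3010 to 10939 counts, Lrp1 548 to 5011, Abca1 235 to 534, Lpl 93 to 369 and Fabp5 84 to 302. At the lowest counts, counting alone gives an SD of 0.03 on the log2 scale for Apoe, 0.15 for Lpl and 0.16 for Fabp5. The labelled tissue held its defining cells, since none of 11 neuron markers had fewer than 45 counts and none of 8 astrocyte markers fewer than 113 counts in any mouse. Differences were tested with limma across all 1266 genes, and a gene was called at an adjusted p below 0.05.

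In M28L_5xFAD cortex Lpl was lower than in 5xFAD cortex, in females and in males, while none of the other 4 genes passed the test. In P522R_5xFAD cortex Lrp1 was higher and Apoe and Abca1 were lower than in 5xFAD cortex, and Lpl and Fabp5 did not pass the test. The table as a whole differed much more in P522R_5xFAD mice than in M28L_5xFAD mice, so the calls have different backgrounds. For M28L_5xFAD against 5xFAD, 1 of the 5 genes was called, where 10.3% of all genes were called, 4.66% higher and 5.61% lower. For P522R_5xFAD against 5xFAD, 3 of the 5 were called, where 65.4% of all genes were called, 40.5% higher and 24.9% lower. For P522R_5xFAD against M28L_5xFAD, 4 of the 5 were called, where 67.6% of all genes were called, 41.5% higher and 26.1% lower. The counts for P522R_5xFAD are near the background. The balance of rises and falls over all genes depended on scaling. The deposited values gave 513 higher and 315 lower genes for P522R_5xFAD against 5xFAD, and centring on 3 housekeeping genes gave 356 and 367. For M28L_5xFAD against 5xFAD the deposited values gave 59 higher and 71 lower and housekeeping centring 286 and 36. For P522R_5xFAD against M28L_5xFAD they were 525 and 331 as deposited and 218 and 529 after housekeeping centring.

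**Figure D1:**
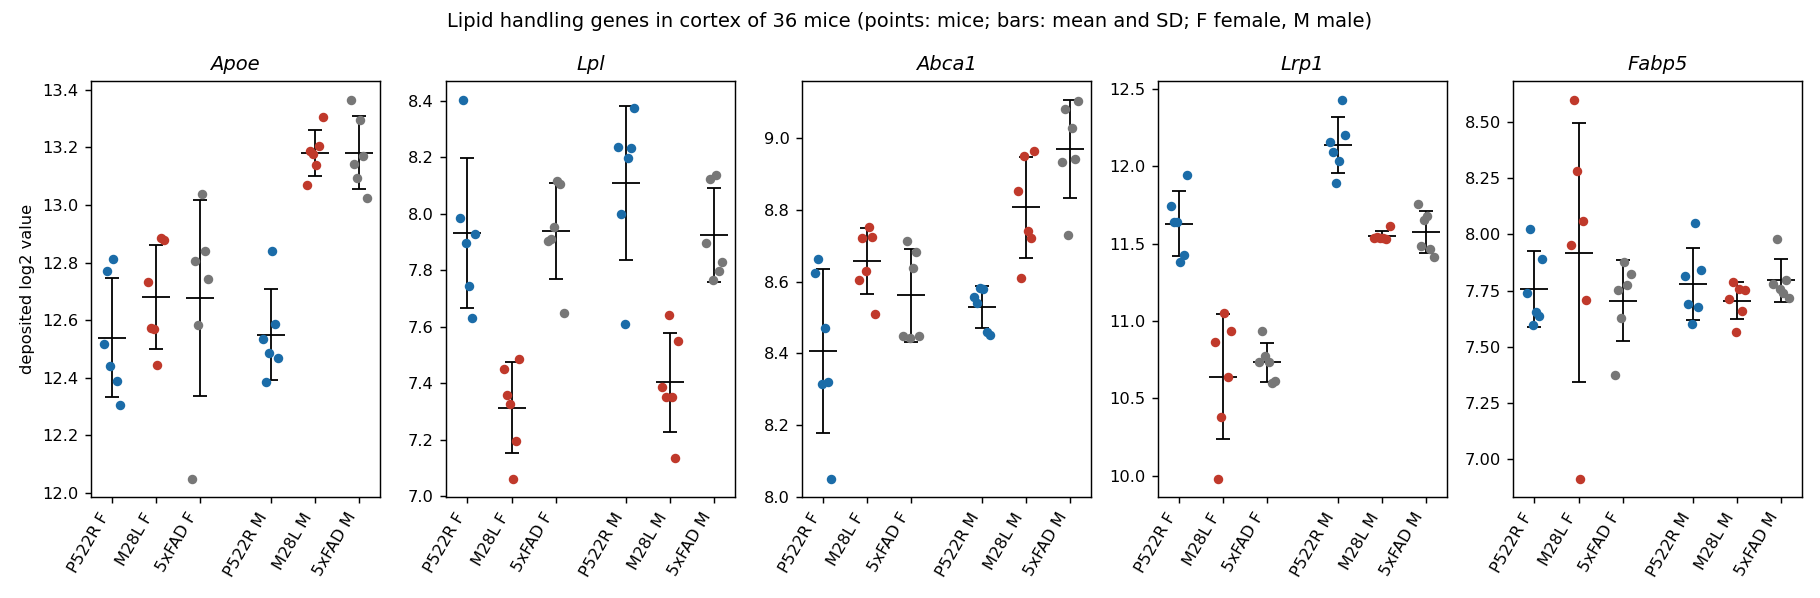
Deposited log2 value of each gene in every mouse, by genotype and sex, with the mean and SD of each group of 6. The M28L_5xFAD points of Lpl lie below all 5xFAD points of the same sex, and the P522R_5xFAD points of Lrp1 lie above all other points of the same sex.

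Lpl, the lipase, was measured at 7.06, 7.34 and 7.49 (lowest, median and highest log2 value) in M28L_5xFAD females, against 7.65, 7.93 and 8.12 in 5xFAD females. In males it was at 7.14, 7.37 and 7.64 in M28L_5xFAD mice, against 7.765, 7.863 and 8.137 in 5xFAD mice. The groups did not overlap in either sex, and all 12 M28L_5xFAD mice lay below the 5xFAD mean of their sex. In recovered counts, Lpl had 93 to 150 in M28L_5xFAD females, at panel totals of 921565 to 1176360, and 170 to 234 in 5xFAD females, at panel totals of 953461 to 1239109. The mean log2 value was 7.313 ± 0.16 in M28L_5xFAD females and 7.94 ± 0.17 in 5xFAD females (SD, n = 6 each). In males it was 7.40 ± 0.18 in M28L_5xFAD mice and 7.92 ± 0.17 in 5xFAD mice (SD, n = 6 each).

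Averaged over the sexes, Lpl was lower by a log2 difference of -0.57 ± 0.08 (SE; 95% interval -0.74 to -0.41) in M28L_5xFAD than in 5xFAD mice, which is 1.49-fold lower (adjusted p = 6.36e-06, limma). The median of all genes in this comparison was 0.00. The difference was -0.63 in females (adjusted p = 0.00109) and -0.52 in males (adjusted p = 0.00772). Within sex, Lpl was the 1 of 5 genes called in females, where 3.87% of all genes were called, and the 1 of 5 called in males, where 2.05% were called. The female effect minus the male effect was -0.10 ± 0.16 (SE) and did not pass the test (adjusted p = 0.9997). No gene at all passed that interaction test in limma (0.0% of all genes, with 34 at an unadjusted p below 0.05). The design has no sample that separates cell number from content: in bulk RNA, fewer cells of a type and less RNA per cell cannot be told apart.

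In P522R_5xFAD mice Lpl did not pass the test against 5xFAD. It was at 7.63, 7.91 and 8.40 in P522R_5xFAD females and at 7.61, 8.21 and 8.37 in P522R_5xFAD males, and both ranges overlapped those of the 5xFAD mice given above. The difference from 5xFAD was 0.09 ± 0.08 (SE; 95% interval -0.08 to 0.25; adjusted p = 0.348, limma). A missed threshold does not show equal levels. In P522R_5xFAD males the difference from 5xFAD males was 0.18 (adjusted p = 0.190), and it was 0.28 (adjusted p = 0.0317) without P522R_5xFAD male 27. Against M28L_5xFAD, Lpl in P522R_5xFAD mice was higher by 0.66 ± 0.08 (SE; 1.58-fold; adjusted p = 9.14e-09), with all 12 P522R_5xFAD mice above the M28L_5xFAD mean of their sex. The females did not overlap and the males did, through P522R_5xFAD male 27 at 7.61.

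Of 19 measured genes listed as markers of plaque-associated microglia, among them Itgax, Cst7 and the cathepsins, none was higher and 13 were lower in M28L_5xFAD than in 5xFAD mice (median -0.41). Over all genes 4.66% were higher and 5.61% lower in that comparison. In P522R_5xFAD against 5xFAD mice 7 of the 19 were higher and 3 lower (median -0.01). There 40.5% of all genes were higher and 24.9% lower, so these counts are near or below the background. The summed level of the 19 genes was 31510 to 34590 in M28L_5xFAD females and 40230 to 50790 in 5xFAD females, after taking the deposited values off the log scale. In males it was 26870 to 37190 in M28L_5xFAD mice and 34720 to 42780 in 5xFAD mice, and no listed gene was at 0 in any mouse. Among 14 general microglia markers, 1 was higher and 3 were lower in M28L_5xFAD mice (median -0.18), beside the 4.66% and 5.61% of all genes. Their summed levels were 10350 to 12190 in M28L_5xFAD females against 11990 to 16400 in 5xFAD females. In males these sums were 9221 to 13330 in M28L_5xFAD mice and 11200 to 14820 in 5xFAD mice.

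Lpl was set against these markers within each mouse by subtracting the mean log2 value of a list, and the mice were permuted within sex over all 853776 arrangements (exact, two-sided, adjusted over 57 tests). This step and its lists were chosen with the genes' values known. Relative to the 19 plaque-associated genes, Lpl in M28L_5xFAD mice differed by -0.03 from 5xFAD mice (exact p = 0.615, adjusted p = 0.661), while the list itself differed by -0.55. Relative to the 14 general microglia markers it was lower by -0.38 (exact p = 1.17e-05, adjusted p = 3.51e-05). Relative to 8 astrocyte markers it was lower by -0.47 and relative to Apoe by -0.57 (exact p = 2.34e-06, the smallest these arrangements can give, adjusted p = 1.21e-05 for both). The share of cell number in the Lpl difference was not tested beyond these values.

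**Figure D2:**
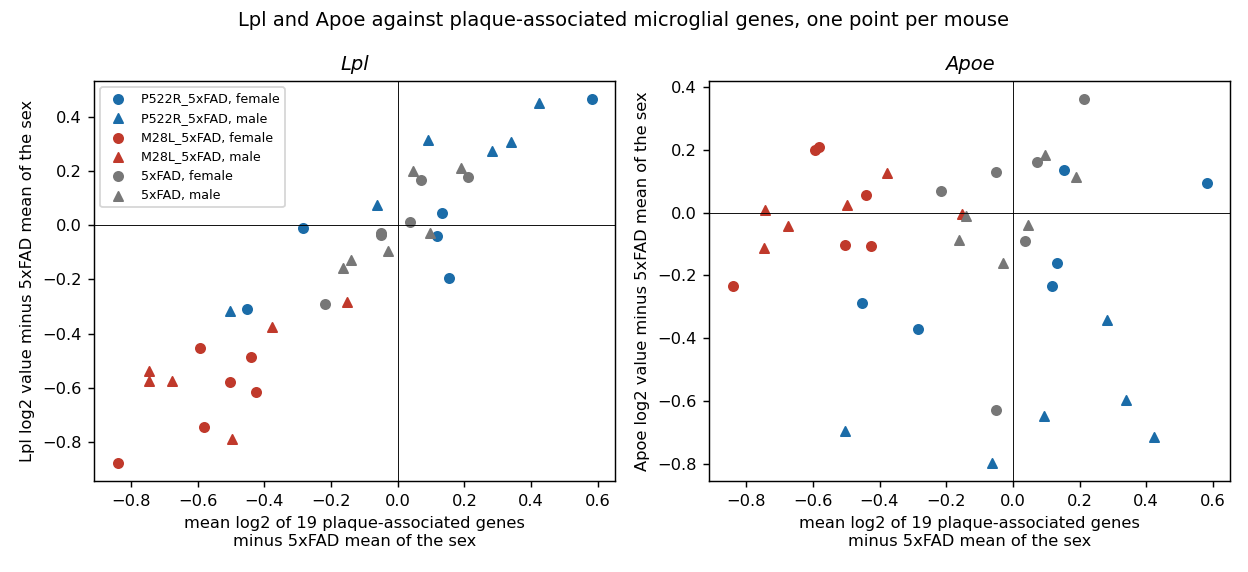
Log2 value of Lpl (left) and Apoe (right) against the mean log2 value of 19 plaque-associated microglia genes, each minus the 5xFAD mean of the same sex; points are mice, circles female and triangles male. M28L_5xFAD mice have list values of -0.84 to -0.15 and Lpl values of -0.88 to -0.28, while their Apoe values lie between -0.23 and 0.21.

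Apoe, the lipoprotein, did not follow Lpl in M28L_5xFAD mice. It was at 12.44, 12.65 and 12.88 in M28L_5xFAD females, against 12.05, 12.77 and 13.04 in 5xFAD females. In males it was at 13.07, 13.18 and 13.31 in M28L_5xFAD mice, against 13.02, 13.16 and 13.36 in 5xFAD mice. The ranges overlapped in both sexes, and 6 of 12 M28L_5xFAD mice lay below the 5xFAD mean of their sex. The difference was 0.00 ± 0.08 (SE; 95% interval -0.15 to 0.15; adjusted p = 0.999, limma). Relative to the 19 plaque-associated genes of the same mice, Apoe in M28L_5xFAD mice differed by 0.55 (exact permutation p = 2.34e-06, adjusted p = 1.21e-05). The list itself differed by -0.55, so this relative value reflects the lower list and not a rise of Apoe.

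In P522R_5xFAD males Apoe was at 12.38, 12.51 and 12.84, against 13.02, 13.16 and 13.36 in 5xFAD males, and the groups did not overlap. In P522R_5xFAD females it was at 12.31, 12.48 and 12.81, against 12.05, 12.77 and 13.04 in 5xFAD females, and the groups overlapped. Apoe was lower in P522R_5xFAD males by a log2 difference of -0.63 ± 0.11 (SE; adjusted p = 8.05e-06, limma), and the value in females was -0.14 ± 0.11 (SE; adjusted p = 0.271). The female effect minus the male effect was 0.49 ± 0.15 (SE; adjusted p = 0.0190), and 1 of the 5 genes was called in this interaction, where 20.9% of all genes were called. Apoe was thus lower by more in males than in females in the deposited values. The same interaction against M28L_5xFAD was 0.49 ± 0.15 (SE; adjusted p = 0.0160), again the 1 of 5 called, where 23.5% of all genes were called. The lowest 5xFAD female, number 1180 at 12.05, weighed on the female value, which became -0.26 (adjusted p = 0.0146) without her. The interaction against 5xFAD then was 0.37 and still passed the test (adjusted p = 0.0396), while it no longer passed after median centring (0.37, adjusted p = 0.0508) or quantile normalization (0.39, adjusted p = 0.0564). With all mice kept, the female value against 5xFAD passed after median centring (-0.24, adjusted p = 0.035) and quantile normalization (-0.27, adjusted p = 0.03). It did not after housekeeping centring, median centring within each panel or panel total centring. Against M28L_5xFAD the female value passed in all of these scalings (-0.33 to -0.22) except panel total centring.

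Averaged over the sexes Apoe was lower in P522R_5xFAD mice by -0.38 ± 0.08 against 5xFAD (SE; 1.31-fold; adjusted p = 3.91e-05) and by -0.39 ± 0.08 against M28L_5xFAD (SE; 1.31-fold; adjusted p = 3.55e-05). In each comparison 10 of 12 P522R_5xFAD mice lay below the mean of the other genotype in their sex. Apoe was lower relative to the 8 astrocyte markers too, by -0.42 against 5xFAD mice (exact permutation p = 0.000117, adjusted p = 0.000303). Of those markers 4 were higher and 2 lower in P522R_5xFAD mice, where 40.5% of all genes were higher and 24.9% lower. Their summed levels were 23560 to 38290 in P522R_5xFAD females against 24190 to 28360 in 5xFAD females. In males they summed to 32280 to 40430 in P522R_5xFAD mice and 34130 to 38410 in 5xFAD mice.

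Abca1, the exporter that lipidates Apoe, was at 8.45, 8.55 and 8.58 in P522R_5xFAD males, against 8.73, 8.99 and 9.10 in 5xFAD males, with no overlap. In P522R_5xFAD females it was at 8.05, 8.40 and 8.66, against 8.44, 8.54 and 8.71 in 5xFAD females, with overlap. Abca1 was lower in P522R_5xFAD than in 5xFAD males by -0.44 ± 0.08 (SE; adjusted p = 3.41e-05, limma), and the value in females was -0.15 ± 0.08 (SE; adjusted p = 0.104). The difference between the sexes was 0.29 and did not pass the test (adjusted p = 0.0774). That interaction passed without 5xFAD male 1182 (0.33, adjusted p = 0.0372) or P522R_5xFAD female 8 (0.36, adjusted p = 0.0182). The female value passed without P522R_5xFAD female 24 (-0.21, adjusted p = 0.0339) or 106 (-0.20, adjusted p = 0.0447). With all mice kept, it passed after median centring (-0.25, adjusted p = 0.00717), median centring within each panel (-0.23, adjusted p = 0.0116) and panel total centring (-0.22, adjusted p = 0.0226). It did not pass after quantile normalization or housekeeping centring.

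Averaged over the sexes Abca1 was lower in P522R_5xFAD mice by -0.30 ± 0.06 against 5xFAD (SE; 1.23-fold; adjusted p = 3.42e-05), with 10 of 12 mice below the 5xFAD mean of their sex. Against M28L_5xFAD it was lower by -0.26 ± 0.06 (SE; 1.20-fold; adjusted p = 0.000163), with 11 of 12 below. Abca1 was at 8.51, 8.68 and 8.75 in M28L_5xFAD females and at 8.61, 8.80 and 8.96 in M28L_5xFAD males, ranges that overlapped those of 5xFAD mice. The M28L_5xFAD difference from 5xFAD was -0.03 ± 0.06 (SE; 95% interval -0.15 to 0.08; adjusted p = 0.790). Within P522R_5xFAD mice the changes of Apoe and Abca1 were not separated by the spread between mice (Abca1 relative to Apoe 0.09, exact permutation p = 0.311, adjusted p = 0.385).

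Lrp1, the endocytic receptor for Apoe particles, had the largest fitted genotype difference of the 5 genes. It was at 11.38, 11.64 and 11.95 in P522R_5xFAD females, at 9.98, 10.75 and 11.05 in M28L_5xFAD females and at 10.60, 10.74 and 10.94 in 5xFAD females. In males it was at 11.89, 12.13 and 12.43 in P522R_5xFAD mice, at 11.53, 11.54 and 11.61 in M28L_5xFAD mice and at 11.41, 11.57 and 11.75 in 5xFAD mice. In each sex all P522R_5xFAD mice lay above all mice of the other genotypes, whose ranges overlapped each other. The female M28L_5xFAD mice were spread most (SD 0.40), with female 20 lowest at 9.98 and 548 counts.

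Lrp1 was higher in P522R_5xFAD than in 5xFAD mice by 0.73 ± 0.08 (SE; 95% interval 0.56 to 0.89; 1.66-fold; adjusted p = 1.36e-09, limma), where the median of all genes was 0.08. Within sex the difference was 0.90 in females (adjusted p = 8.13e-08) and 0.56 in males (adjusted p = 0.000114). Against M28L_5xFAD it was 0.79 ± 0.08 (SE; 1.73-fold; adjusted p = 1.91e-10). The female effect minus the male effect did not pass the test (0.34, adjusted p = 0.143 against 5xFAD, and 0.40, adjusted p = 0.0687 against M28L_5xFAD), though the value against M28L_5xFAD passed without any of 6 mice taken singly, with adjusted p-values down to 0.0180. M28L_5xFAD differed from 5xFAD by -0.06 ± 0.08 (SE; 95% interval -0.22 to 0.11; adjusted p = 0.725).

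Depth of the smaller panel moved with genotype in females. Its totals were 404333 to 774198 counts in P522R_5xFAD females, 237563 to 318180 in M28L_5xFAD females and 274013 to 338173 in 5xFAD females. In males they were 259284 to 672936 counts in P522R_5xFAD mice, 596476 to 642696 in M28L_5xFAD mice and 462536 to 680262 in 5xFAD mice. The shallowest P522R_5xFAD male, number 30, had the highest Lrp1 value (12.43, from 2470 counts). Leaving out each mouse in turn gave 0.70 to 0.75 for P522R_5xFAD against 5xFAD. After each mouse was centred on its panel total the difference was 0.80, and after centring on the median of each panel it was 0.86. The part of panel depth in the Lrp1 difference was not tested beyond these values. The larger panel, which held Apoe, Lpl, Abca1 and Fabp5, was also deeper in P522R_5xFAD females. Its totals were 1295271 to 1957325 counts in them, 921565 to 1176360 in M28L_5xFAD females and 953461 to 1239109 in 5xFAD females. The part of this depth in the differences of those genes, or in the Apoe interaction, was not tested.

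Averaged over the sexes, Apoe and Abca1 were lower and Lrp1 was higher in P522R_5xFAD than in 5xFAD mice, so stretches of their promoters are printed for comparison. Each is the 150 bases before a transcript start that RefSeq annotates on GRCm38.p6, on the minus strand and written 5′ to 3′ in the direction of the gene. The promoter table held 3 of the 5 genes. For Apoe it has 3 windows, and the first is shown (chr7:19699189-19699338). For Abca1 the stretch is chr4:53159896-53160045, and for Lrp1 chr10:127621149-127621298. The Apoe stretch lies inside the annotated gene span and the Abca1 stretch overlaps its end, so these starts are not the outermost of their genes. Capitals mark exact matches to short motifs on either strand. The motifs searched were the GC box, spelled GGGCGG and known as a site of Sp1 family factors, and the E-box, spelled CACGTG and known as a site of helix-loop-helix factors. The TATA box, spelled TATAAA, is an element of the core promoter, and the nuclear receptor motif, spelled AGGTCA, is the core letters of sites bound by receptors such as LXR.
Apoe: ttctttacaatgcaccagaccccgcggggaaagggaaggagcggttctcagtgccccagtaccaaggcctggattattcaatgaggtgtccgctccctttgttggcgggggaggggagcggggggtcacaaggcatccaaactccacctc
Abca1: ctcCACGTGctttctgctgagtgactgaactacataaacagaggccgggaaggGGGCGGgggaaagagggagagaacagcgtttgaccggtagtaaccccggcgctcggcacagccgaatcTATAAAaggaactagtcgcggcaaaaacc
Lrp1: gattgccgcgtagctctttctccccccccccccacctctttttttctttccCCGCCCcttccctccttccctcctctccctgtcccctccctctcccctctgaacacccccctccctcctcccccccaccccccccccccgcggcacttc
The Abca1 stretch held 1 E-box beginning 147 bases before the start, 1 GC box at 97 and 1 TATA box at 29, and the Lrp1 stretch held 1 GC box at 99. The Apoe stretch shown held none of these motifs, while the second Apoe window held 2 overlapping TATA boxes, beginning 100 and 96 bases before its start, and the third held none. Over 32851 promoter stretches of the same length, 28.6% held the GC box, 4.3% the E-box, 7.57% the TATA box and 8.58% the nuclear receptor motif. A match is a string of letters and not a measured binding site. On GRCm38.p6 the protein-coding genes lie at chr7:19696244-19701310 (Apoe), chr8:68880555-68906932 (Lpl), chr4:53030789-53159988 (Abca1), chr10:127538157-127621148 (Lrp1) and chr3:10012585-10016610 (Fabp5).

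Fabp5, the fatty acid binding protein, passed the test in no genotype comparison. It was at 7.60, 7.70 and 8.03 in P522R_5xFAD females, at 6.92, 8.01 and 8.60 in M28L_5xFAD females and at 7.38, 7.77 and 7.88 in 5xFAD females. In males it was at 7.60, 7.75 and 8.05 in P522R_5xFAD mice, at 7.57, 7.73 and 7.79 in M28L_5xFAD mice and at 7.72, 7.77 and 7.98 in 5xFAD mice. All ranges overlapped, and the M28L_5xFAD females held both the lowest and the highest mouse of the 36, with an SD of 0.58 against 0.08 to 0.18 in the other groups.

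The Fabp5 difference was 0.02 ± 0.10 for P522R_5xFAD against 5xFAD (SE; 95% interval -0.19 to 0.23; adjusted p = 0.892, limma) and 0.06 ± 0.10 for M28L_5xFAD against 5xFAD (SE; 95% interval -0.15 to 0.27; adjusted p = 0.782). For P522R_5xFAD against M28L_5xFAD it was -0.04 ± 0.10 (SE; adjusted p = 0.708). M28L_5xFAD female 12, at 6.92 and 84 counts, weighed on the female values. Without her the M28L_5xFAD females were above the 5xFAD females by 0.41 (adjusted p = 0.0290), against 0.21 (adjusted p = 0.453) with her. The P522R_5xFAD females were below the M28L_5xFAD females by -0.36 (adjusted p = 0.00457), against -0.16 (adjusted p = 0.341). With her kept, both female values also passed after housekeeping centring (0.38, adjusted p = 0.0497, and -0.355, adjusted p = 0.0355), but not in the other scalings.

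**Figure D3:**
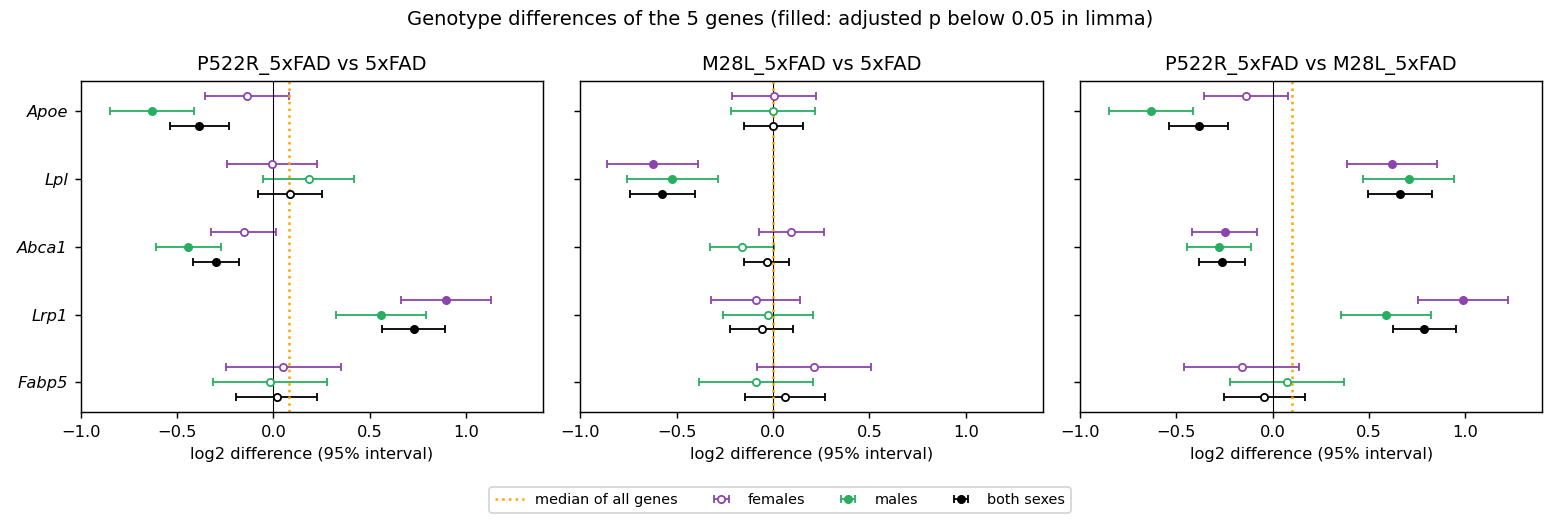
Log2 difference of each gene with its 95% interval in females, in males and averaged over the sexes, for the 3 genotype comparisons; filled points passed the limma test and the dotted line is the median of all genes. For M28L_5xFAD against 5xFAD Lpl alone is filled, at -0.57, and Lrp1 lies at 0.73 and 0.79 for P522R_5xFAD against 5xFAD and against M28L_5xFAD.

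Within sex, the counts of called genes were as follows. For P522R_5xFAD against 5xFAD, 1 of 5 was called in females (Lrp1), where 60.2% of all genes were called, and 3 of 5 in males (Lrp1, Apoe and Abca1), where 50.6% were called. For P522R_5xFAD against M28L_5xFAD, 3 of 5 were called in females (Lpl, Lrp1 and Abca1), where 61.0% of all genes were called, and 4 of 5 in males (these and Apoe), where 50.0% were called. These counts lie at or below the background in females for P522R_5xFAD against 5xFAD and near or above it in the others, with only 5 genes behind each.

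Females had lower deposited values than males across most of the table, and this depended on scaling. In P522R_5xFAD mice 10 genes were higher and 871 lower in females as deposited, against 33 and 56 after median centring and 28 genes called in all after median centring within each panel. In M28L_5xFAD mice 37 were higher and 836 lower as deposited, against 283 and 309 after median centring. In 5xFAD mice 23 were higher and 888 lower as deposited, against 258 and 276 after median centring. The calls below are those of the deposited values. In 5xFAD mice 3 of the 5 genes were lower in females, where 70.1% of all genes were lower, and the differences were -0.51 for Apoe (adjusted p = 8.73e-05), -0.41 for Abca1 (adjusted p = 4.40e-05) and -0.84 for Lrp1 (adjusted p = 6.36e-08). In M28L_5xFAD mice 2 of 5 were lower, where 66.0% of all genes were lower, with -0.50 for Apoe (adjusted p = 0.000104) and -0.91 for Lrp1 (adjusted p = 1.50e-08). In P522R_5xFAD mice 1 of 5 was lower, where 68.8% of all genes were lower, with -0.51 for Lrp1 (adjusted p = 0.000325). That Lrp1 call was lost after median centring (-0.25, adjusted p = 0.188, limma) and after median centring within each panel (-0.09, adjusted p = 0.806). The Lrp1 call in 5xFAD mice was lost after panel total centring (-0.30, adjusted p = 0.0565). The Apoe call in M28L_5xFAD mice was lost after median centring (-0.15, adjusted p = 0.197). The medians over all genes were -0.31 in P522R_5xFAD mice, -0.38 in M28L_5xFAD mice and -0.41 in 5xFAD mice, so Apoe and Abca1 in 5xFAD mice lay near the median. After median centring Apoe differed by -0.12 (adjusted p = 0.303) and Abca1 by -0.03 (adjusted p = 0.806) between 5xFAD females and males. The Apoe call was also lost after quantile normalization (-0.135, adjusted p = 0.314). It held after housekeeping centring, median centring within each panel and panel total centring, while the Abca1 call was lost in all of these. Larger-panel totals were 953461 to 1239109 counts in 5xFAD females against 1428825 to 1775622 in 5xFAD males. In M28L_5xFAD mice they were 921565 to 1176360 in females against 1593862 to 1740859 in males. In P522R_5xFAD mice the sexes overlapped, at 1295271 to 1957325 in females and 1589745 to 1800708 in males. The part of depth in these sex differences was not tested. Lpl differed by 0.01 between 5xFAD females and males (adjusted p = 0.916), and after median centring it was higher in females by 0.40 (adjusted p = 0.00370).

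By group mean, Apoe was highest in 5xFAD males (13.18), followed by M28L_5xFAD males (13.18), M28L_5xFAD females (12.68), 5xFAD females (12.68), P522R_5xFAD males (12.55) and P522R_5xFAD females (12.54). Only M28L_5xFAD males and females did not overlap among neighbours in this order. For Lpl the order was P522R_5xFAD males (8.11), 5xFAD females (7.94), P522R_5xFAD females (7.93), 5xFAD males (7.92), M28L_5xFAD males (7.40) and M28L_5xFAD females (7.313), and only the 5xFAD and M28L_5xFAD males, adjacent in it, did not overlap. For Lrp1 it was P522R_5xFAD males (12.14), P522R_5xFAD females (11.63), 5xFAD males (11.58), M28L_5xFAD males (11.55), 5xFAD females (10.73) and M28L_5xFAD females (10.64), and only M28L_5xFAD males and 5xFAD females, adjacent in it, did not overlap. All neighbours overlapped for Abca1, with means of 8.41 to 8.97, and for Fabp5, with means of 7.71 to 7.92.

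The 7 lists of lipid genes held 19 measured genes besides the 5 described above. In M28L_5xFAD against 5xFAD mice none of the 19 was higher and 2 were lower, where 4.66% of all genes were higher and 5.61% lower, with a median of 0.01 where all genes had 0.00. With 10.3% of all genes called, the count is near the background. Trem2, the microglial receptor that binds lipids and lipoproteins, was lower by -0.43 ± 0.12 (SE; adjusted p = 0.0227, limma), and Acsl4, which activates arachidonic acid by joining it to coenzyme A, by -0.14 ± 0.04 (SE; adjusted p = 0.0238). Lpl had a smaller adjusted p than any of them in this comparison.

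In P522R_5xFAD against 5xFAD mice 13 of the 19 were higher and 4 lower, where 40.5% of all genes were higher and 24.9% lower, with a median of 0.35 where all genes had 0.08. Besides Lrp1, 2 other receptors were higher, of which Sorl1, the sorting receptor that routes amyloid precursor protein and Apoe, was higher by 0.48 ± 0.06 (SE; adjusted p = 3.66e-08). The other was the scavenger receptor Msr1, named after its value was seen, by 1.04 ± 0.30 (SE; adjusted p = 0.00268), at a mean of only 6.31 counts per mouse. Sorl1 was at 12.28, 12.52 and 12.66 in P522R_5xFAD females, against 11.87, 11.93 and 12.06 in 5xFAD females, without overlap. The fourth receptor measured, Trem2, was lower by -0.31 ± 0.12 (SE; adjusted p = 0.0309).

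The sterol exporters split. Npc1, the lysosomal membrane protein that moves cholesterol out of lysosomes, was higher by 0.46 ± 0.07 (SE; adjusted p = 1.40e-06). Npc2, its soluble partner, was lower by -0.64 ± 0.10 (SE; adjusted p = 1.02e-06), at 5.15, 5.50 and 5.89 in P522R_5xFAD females against 5.89, 6.19 and 6.48 in 5xFAD females. Abca1 was lower, as given above. Npc2 is a dim gene, with a mean of 70.9 counts per mouse.

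Among the lipases, Lpl included, 5 of 8 were higher and none lower in P522R_5xFAD against 5xFAD mice, beside the 40.5% and 24.9% of all genes. The dimmest of those called had means of only 8.86, 19.8 and 47.7 counts per mouse. The background depended on dim genes too. Among the 1091 genes with a mean log2 value of at least 5, 401 were higher and 313 lower, against 513 and 315 of all 1266. Dagla, which makes the endocannabinoid 2-arachidonoylglycerol from diacylglycerol, was higher by 0.70 ± 0.07 (SE; adjusted p = 1.45e-10), at 9.97, 10.22 and 10.33 in P522R_5xFAD females against 9.03, 9.23 and 9.67 in 5xFAD females. Both measured genes of lipid synthesis were higher, Acly, which supplies cytosolic acetyl coenzyme A, by 0.57 ± 0.06 (SE; adjusted p = 1.07e-09), and Ugt8a, which makes the myelin lipid galactosylceramide, by 0.35 ± 0.06 (SE; adjusted p = 3.13e-06). Acsl3, which activates fatty acids for lipid droplets, was lower by -0.44 ± 0.05 (SE; adjusted p = 6.66e-09). In the same comparison 8 of 11 neuron markers were higher and 1 was lower (median 0.19), 5 of 9 oligodendrocyte markers, Ugt8a among them, were higher and 1 was lower (median 0.21), and 5 of 5 oligodendrocyte precursor markers were higher (median 0.47). Their part in these rises was not tested.

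In P522R_5xFAD against M28L_5xFAD mice 11 of the 19 other lipid genes were higher and 2 lower, where 41.5% of all genes were higher and 26.1% lower, with a median of 0.26 where all genes had 0.10. The called genes with the smallest p were Acly (0.66), Lrp1, Sorl1 (0.60), Dagla (0.63), Acsl3 (-0.45), Ugt8a (0.48), Lpl and Npc2 (-0.76), with adjusted p-values from 2.44e-11 to 3.16e-08. The P522R_5xFAD mice are shared with the comparison above, so the directions are not independent of it.

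Among 1091 genes with a mean log2 value of at least 5, likeness was measured as Pearson's r over 36 mice of deviations from group means. It is a description, since all values of a mouse share its libraries and depth. Genes among the 3 most like Lpl were Itgax (0.78) and Ctsl (0.76), a surface integrin and a cathepsin of the plaque-associated list. Apoe was most like the cathepsin Ctsb (0.82), also of that list, the matrix protein Sparc (0.82) and the neonatal Fc receptor Fcgrt (0.79). Abca1 had weaker partners, with Map2, a dendritic microtubule protein, at 0.64, Olfr110 at 0.59 and the transcription factor Sox2 at 0.57. Genes among the 3 most like Lrp1 were Mtor (0.93), a growth kinase measured on the other panel, and Gaa (0.92), the lysosomal glucosidase. Fabp5 was most like Rtn4 (0.90), a membrane protein of the endoplasmic reticulum, Ndufb5 (0.86), a subunit of mitochondrial complex I, and Snap25 (0.86), a presynaptic fusion protein.

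The 5 genes did not track each other closely once group means were removed. Over 10 pairs of genes in 36 mice, Pearson's r ran from -0.55 to 0.35, and none passed after adjustment (permutation tests, smallest adjusted p = 0.146; smallest adjusted p for Spearman's rho 0.181). The lowest value, between Lrp1 and Fabp5 (rho -0.21), became -0.13 without the 2 mice farthest from the median of Lrp1, so it rested on those mice. The r of Apoe with Abca1 was 0.35 (rho 0.29) and that of Apoe with Lpl 0.30 (rho 0.34).

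**Figure D4:**
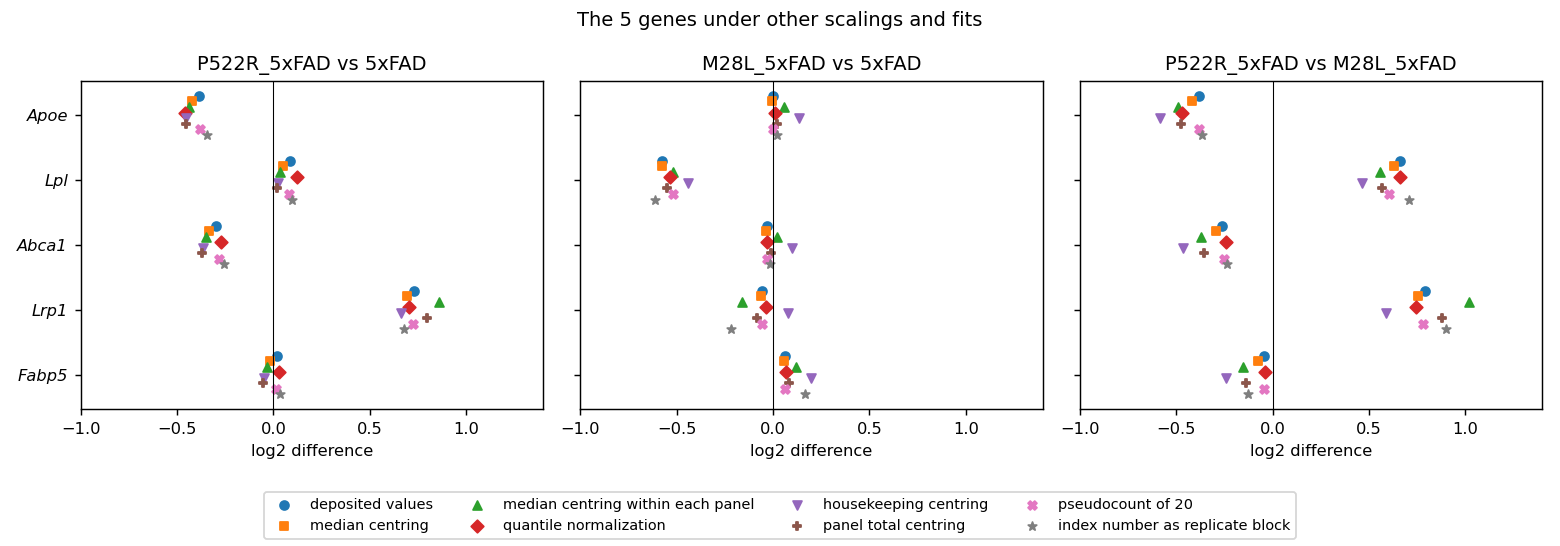
Log2 difference of each gene in the 3 genotype comparisons, as deposited and under 7 other scalings or fits, each with its own marker. The Lpl values for M28L_5xFAD against 5xFAD run from -0.61 to -0.44 and the Lrp1 values for P522R_5xFAD against 5xFAD stay between 0.66 and 0.86 in these settings.

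The scalings moved the sizes of the differences. Housekeeping centring on Gusb, Tbp and Pgk1 moved the median of all genes for M28L_5xFAD against 5xFAD to 0.13, and Lpl to -0.44. It shifts every gene of a mouse by the same amount, so the distance of 0.57 between Lpl and the median could not change. In these settings the directions of Lpl for M28L_5xFAD, and of Lrp1, Apoe and Abca1 for P522R_5xFAD against 5xFAD, did not turn.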

How the data were processed

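The authors deposited log2 values with 1 column per mouse for 1266 named genes of both panels, and 251 unnamed rows of the 1517 were left out. Per the labels' protocols, total RNA came from a PureLink column kit and the usual NanoString protocol was followed. The normalization is not given in the sources used. On the linear scale 100.0% of values were whole multiples of a step per mouse and panel within 0.05 counts, which gave the counts that describe depth.

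Groups were taken from the labels, with 6 mice for each genotype and sex. Differences were fitted on the log2 values with limma 3.58.1 in R 4.3.3, with a mean per group, a shared spread per gene, eBayes with a trend, and two-sided p-values adjusted by Benjamini-Hochberg over the 1266 genes. Intervals are the fit's 95% intervals. No pseudocount was added in the reported fit. Exact permutations and figures used Python 3.11.15 with scipy 1.17.1, and correlations used 100000 resamples. Mice were told apart by the group, animal number and index in the labels, and nothing says which were littermates.

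The genes, the lists and the tests were chosen with earlier results of these data known. Named were the 5 genes, up to 8 called lipid genes with the smallest p per genotype comparison, and the 3 genes most like each of the 5. A few of these most alike genes are left unreported. Alternatives were other scalings, a minimum mean log2 of 5, a pseudocount of 20, other variance models, subsets of mice by index, an index block and leaving out each mouse. Panel total centring and the values relative to markers were added after seeing the data. Plcg2 itself was not analysed here.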

Additional observations from a re-analysis of the deposited data

Results flagged for a closer look

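In 30 groups of 6 mice (5 genes in 6 groups) the highest or lowest mouse was tested for standing apart from the rest by a gap of more than 0.625 of the group's range, which chance alone gives in about 1 of 20 groups. Lrp1 of M28L_5xFAD male 17 stood apart at 11.61, in a group whose other mice lay between 11.53 and 11.54, with a gap of 0.837 of the range. Fabp5 of 5xFAD male 1181 stood apart at 7.98, with a gap of 0.702 of the range.

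The effect of P522R_5xFAD on Apoe differed between the sexes by the interaction test in limma on the deposited values. The female effect minus the male effect was 0.49 against 5xFAD (adjusted p = 0.0190), and 20.9% of all genes passed the same test. Against M28L_5xFAD it was 0.49 (adjusted p = 0.0160), and 23.5% of all genes passed. Both values share the P522R_5xFAD mice, and 1 of the 5 genes called is near the share over all genes. Against 5xFAD the interaction no longer passed after median centring (0.37, adjusted p = 0.0508) or quantile normalization (0.39, adjusted p = 0.0564).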

How the results depend on the processing

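Over 16 alternatives for Lpl and 13 for the others, none of the calls on Lpl for M28L_5xFAD against 5xFAD (-0.64 to -0.44) or on Lrp1 (0.66 to 0.86), Apoe (-0.46 to -0.35) and Abca1 (-0.37 to -0.26) for P522R_5xFAD against 5xFAD was lost. Leaving out each mouse in turn changed no call of the 15 values averaged over the sexes. Exceptions outside these were Fabp5 for P522R_5xFAD against M28L_5xFAD, called after housekeeping centring (-0.24, adjusted p = 0.0354) and with the M28L_5xFAD mice of index 1 to 3 alone (-0.22, adjusted p = 0.0301). Genes called for M28L_5xFAD against 5xFAD numbered 130 as reported, 322 after housekeeping centring, 77 with M28L_5xFAD mice of index 1 to 3 and 30 with no sex term. With the pair of females numbered 14 taken as their mean, 129 were called. Within females 38 were then called, against 49 as reported. Turned in sign between females and males were Lpl in M28L_5xFAD (0.32) and Fabp5 in 5xFAD (0.33) after quantile normalization, and Abca1 in M28L_5xFAD after median centring (0.20) and quantile normalization (0.22). The cause was not tested. A replicate block on the index number changed no call on the 5 genes averaged over the sexes (Lpl -0.61 for M28L_5xFAD, Lrp1 0.68 for P522R_5xFAD, against 5xFAD). Of 22 pairs of mice sharing an index across genotypes within a sex, 1 correlated over 0.1 (median -0.07). Of 182 such pairs with different index numbers, 68 did (median 0.003). Mice sharing an index were thus not more alike than others, and the number is not taken to pair them. Counts of 93 to 369 limit Lpl and 84 to 302 limit Fabp5.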
